A study of Arabidopsis thaliana with 36 samples.

Results

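Genes that low red to far-red light is known to switch on in Arabidopsis thaliana, or that are tied to the same growth response, were followed through seedlings kept warm or cool. They are 8: 5 genes of class II homeodomain-leucine zipper (HD-ZIP II) transcription factors (ATHB2, HAT1, HAT2, HAT3 and ATHB4), the basic helix-loop-helix gene PIL1, and the LONGIFOLIA genes LNG1 and LNG2. They were chosen by name for this known link with shade, and each was found by its locus among the 33540 loci of each library, so 8 of 33540 loci are described. All 8 passed the filter on low values in every fit. The groups differ in genotype, age and temperature: hda9-1, pif4-2 and the wild type Col-0 (WT), at 7 or 2 days of age, at 27 or 22 °C, with 3 libraries in each of the 12 groups and 36 libraries in all. hda9-1 is a mutant of HDA9, which encodes a histone deacetylase, and pif4-2 a mutant of PIF4, which encodes a bHLH transcription factor, both in the Col-0 background. All seedlings grew on MS-agar in short days (8 h light) and whole seedlings were frozen at lights on, so the values stand for a single time of day. Each library combines RNA of 3 batches of pooled seedlings harvested apart. Each mutant is a single allele, and developmental stage was not recorded beside age.

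Shade growth in seedlings starts when phytochromes lose their active form and stop restraining the PHYTOCHROME-INTERACTING FACTORs (PIFs), which bind the G-box sequence CACGTG near target genes. HD-ZIP II proteins are mostly repressors of transcription, and ATHB2 is the classic early shade gene of the family. Warmth uses part of the same route: PIF4 drives auxin synthesis and stem elongation in warm seedlings, and HDA9 is known to promote that growth.

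The libraries held 21906850 to 67795235 reads in genes (median 44904956). The unit is the normalised count, a read count over the size factor of its library. HDA9 averaged 26.7 to 73.4 normalised counts in the hda9-1 groups, against 407 to 549 in the WT groups. PIF4 averaged 853 normalised counts in the libraries labelled pif4-2 against 470 in WT at 22 °C and 2 days, and 4797 against 8096 at 27 °C and 7 days. A count over the whole PIF4 gene can include reads outside an insertion, so it does not check that label, and "pif4-2" below stands for the libraries labelled pif4-2. A gene is said to rise or fall, or to be called, where its limma p is under 0.05 after Benjamini-Hochberg adjustment across every gene tested. Such a p sets a difference against the spread among these libraries, estimated with the help of the other genes, and takes in no other source of variation. Replicate 3 of WT and of pif4-2 at 2 days (4 libraries) stood apart from their group mates in an earlier look at these data. Without them the number of the 8 genes called was the same in all comparisons given without them but 4, which were hda9-1 against WT at 27 °C and 2 days 3 in place of 2, the hda9-1 warmth response against that of WT at 2 days 6 in place of 3, and age at 22 °C 7 in place of 8 in pif4-2 and 8 in place of 7 in WT. By Pearson's r of log2(normalised count + 1), replicates 1 and 3 of pif4-2 at 27 °C and 2 days (0.9964) were as close as 1 and 2 (0.9963). Replicate 3 of pif4-2 at 22 °C and 7 days had the lowest r with its group mates (0.9929 with each, against 0.9968 between these). In whole seedlings, fewer cells of a type and less RNA per cell cannot be told apart.

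ATHB2 (AT4G16780) lies at chr4:9449114-9450905 on the plus strand of TAIR10.1, and HAT1 (AT4G17460), which also acts in brassinosteroid responses, at chr4:9739518-9741234 on the plus strand. HAT2 (AT5G47370), an auxin-inducible gene, lies at chr5:19216271-19218007, HAT3 (AT3G60390) at chr3:22320580-22322661 and ATHB4 (AT2G44910) at chr2:18517656-18519731, all on the minus strand. HAT3 and ATHB4 are known to act together in the upper side of leaves. PIL1 (AT2G46970), whose protein resembles the PIFs and is known to curb the shade response, lies at chr2:19295431-19297858 on the minus strand. LNG1 (AT5G15580), at chr5:5068237-5072492, and LNG2 (AT3G02170), at chr3:396012-399960, are on the minus strand and encode related proteins that lengthen leaf cells along the leaf axis. All 8 are annotated as protein-coding. The end of LNG1 shares 312 bases with AT5G15581 on the opposite strand, whose highest value in any library was 6.61 normalised counts, and LNG2 shares 332 bases with AT3G02160, whose highest value was 158. The strand setting of the counting is not given in the sources used here, so reads of these overlaps could be assigned to neither or to either gene.

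The G-box was searched in the 2000 bases before each gene's annotated start in TAIR10.1, because it is the sequence PIFs bind. It was present before 6 of the 8 genes, against 23.8% of 27440 protein-coding genes with a window of the same length. In the nearest 1000 bases 0 of the 8 genes had a G-box, against 14.8% of 27443, and the longer window was chosen after that result was known. A stretch of 80 bases around the G-box nearest the start of its gene (a close pair of them in ATHB4) is given 5′ to 3′ on the strand of the gene, with each G-box in capitals.
HAT1, chr4:9738179-9738258, plus strand: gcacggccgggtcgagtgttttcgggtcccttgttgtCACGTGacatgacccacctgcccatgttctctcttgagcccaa
HAT2, chr5:19219424-19219503, minus strand: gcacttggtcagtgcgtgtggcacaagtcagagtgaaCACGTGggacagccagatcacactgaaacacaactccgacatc
ATHB4, chr2:18521522-18521601, minus strand: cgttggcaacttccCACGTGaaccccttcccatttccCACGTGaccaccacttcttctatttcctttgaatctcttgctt
PIL1, chr2:19298909-19298988, minus strand: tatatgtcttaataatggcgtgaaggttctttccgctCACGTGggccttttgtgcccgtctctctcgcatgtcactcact
LNG1, chr5:5073497-5073576, minus strand: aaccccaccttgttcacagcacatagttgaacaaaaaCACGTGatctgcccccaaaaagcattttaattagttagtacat
LNG2, chr3:401559-401638, minus strand: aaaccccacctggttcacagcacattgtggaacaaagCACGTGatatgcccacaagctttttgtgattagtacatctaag
The LNG1 and LNG2 stretches, from different chromosomes, had 65 identical bases of 74 aligned. PIL1 had 3 G-boxes in its window, a number reached by 1.33% of all windows, and ATHB4 had 2, which 5.48% of windows reached or passed. The HAT2 G-box lies inside the neighbouring gene AT5G06985. ATHB2 and HAT3 had none, which says only that these letters are not in those windows.

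The related PBE-box, CACATG on either strand, was found before 5 of the 8 genes, against 61.0% of all windows, with 6 copies each before LNG1 and LNG2 and 3 before HAT2. The HD-ZIP site CAATNATTG, a sequence HD-ZIP proteins bind, was found before 3 of the 8 genes (ATHB2, HAT1 and HAT2), against 6.35% of all windows. N is any base, so the pattern does not set apart the sites of class II from those of other HD-ZIP classes. The middle base was A before ATHB2, G before HAT1 and T before HAT2. A match of letters is not a bound site.

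**Figure D1:**
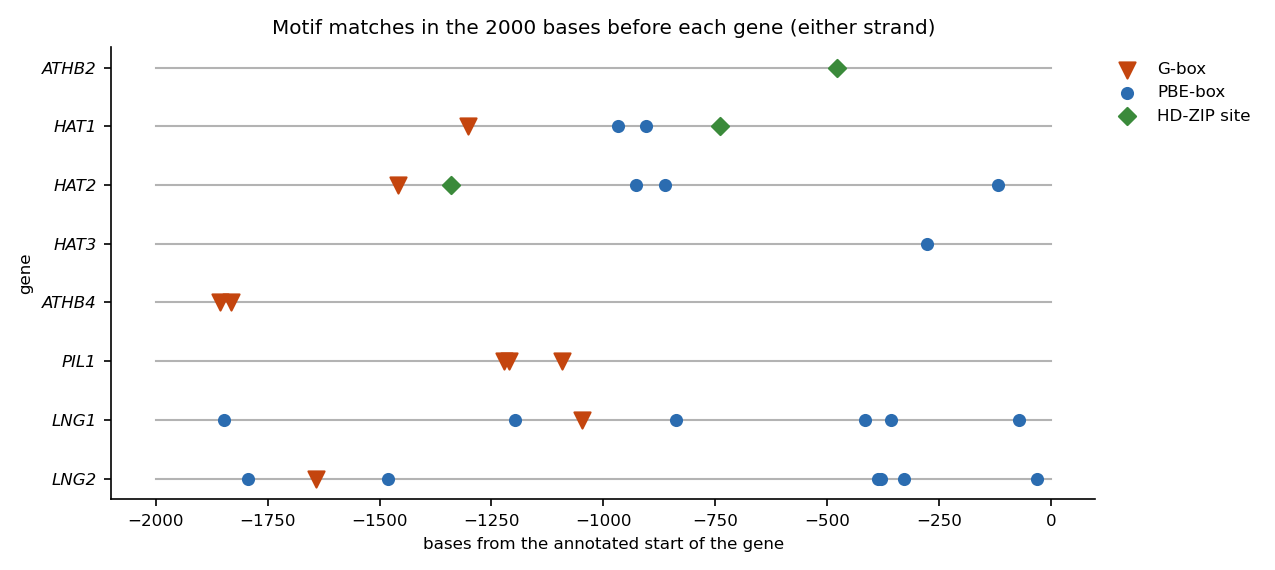
Positions of the 3 motifs in the 2000 bases before the start of each gene, drawn as the distance from the start in bases. G-boxes lie farther than 1000 bases from the start in the 6 genes that have them, and ATHB2 and HAT3 have none.

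Levels can be set beside each other only per length, as normalised counts per kb of exon. In WT at 27 °C and 7 days ATHB2 led with 2942 ± 431 per kb (SD, n = 3, as for all values after ±). HAT1 (1432 ± 158), HAT2 (1308 ± 123) and LNG2 (1225 ± 159 per kb) came next and lay within each other's spread. HAT3 had 756 ± 100 and LNG1 443 ± 45.8, and ATHB4 (257 ± 29.3) and PIL1 (231 ± 30.7) were lowest and did not differ beyond their spread. At 22 °C and 7 days ATHB2 led again with 1999 ± 155 per kb, followed by HAT1 (1237 ± 64.8) and LNG2 (1163 ± 74.1), which overlapped, HAT2 (924 ± 52.6), HAT3 (669 ± 3.27), LNG1 (463 ± 24.2), ATHB4 (176 ± 1.28) and PIL1 (109 ± 28.1).

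The order was another at 2 days. At 27 °C LNG2 (1520 ± 125 per kb) and ATHB2 (1440 ± 136) overlapped at the top, above HAT2 (1214 ± 53.6). HAT1 (911 ± 19.9) and LNG1 (888 ± 42.1) overlapped as well, HAT3 had 739 ± 48.4 and PIL1 659 ± 49.6, and ATHB4 was lowest at 394 ± 35.5 per kb. At 22 °C HAT2 stood alone at the top with 1494 ± 28.1, above LNG2 (984 ± 150) and LNG1 (740 ± 42.5). HAT1 (604 ± 61.8) and HAT3 (556 ± 26.0) overlapped, ATHB2 had 425 ± 94.8, and PIL1 (252 ± 51.9) and ATHB4 (153 ± 22.3) were lowest.

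**Figure D2:**
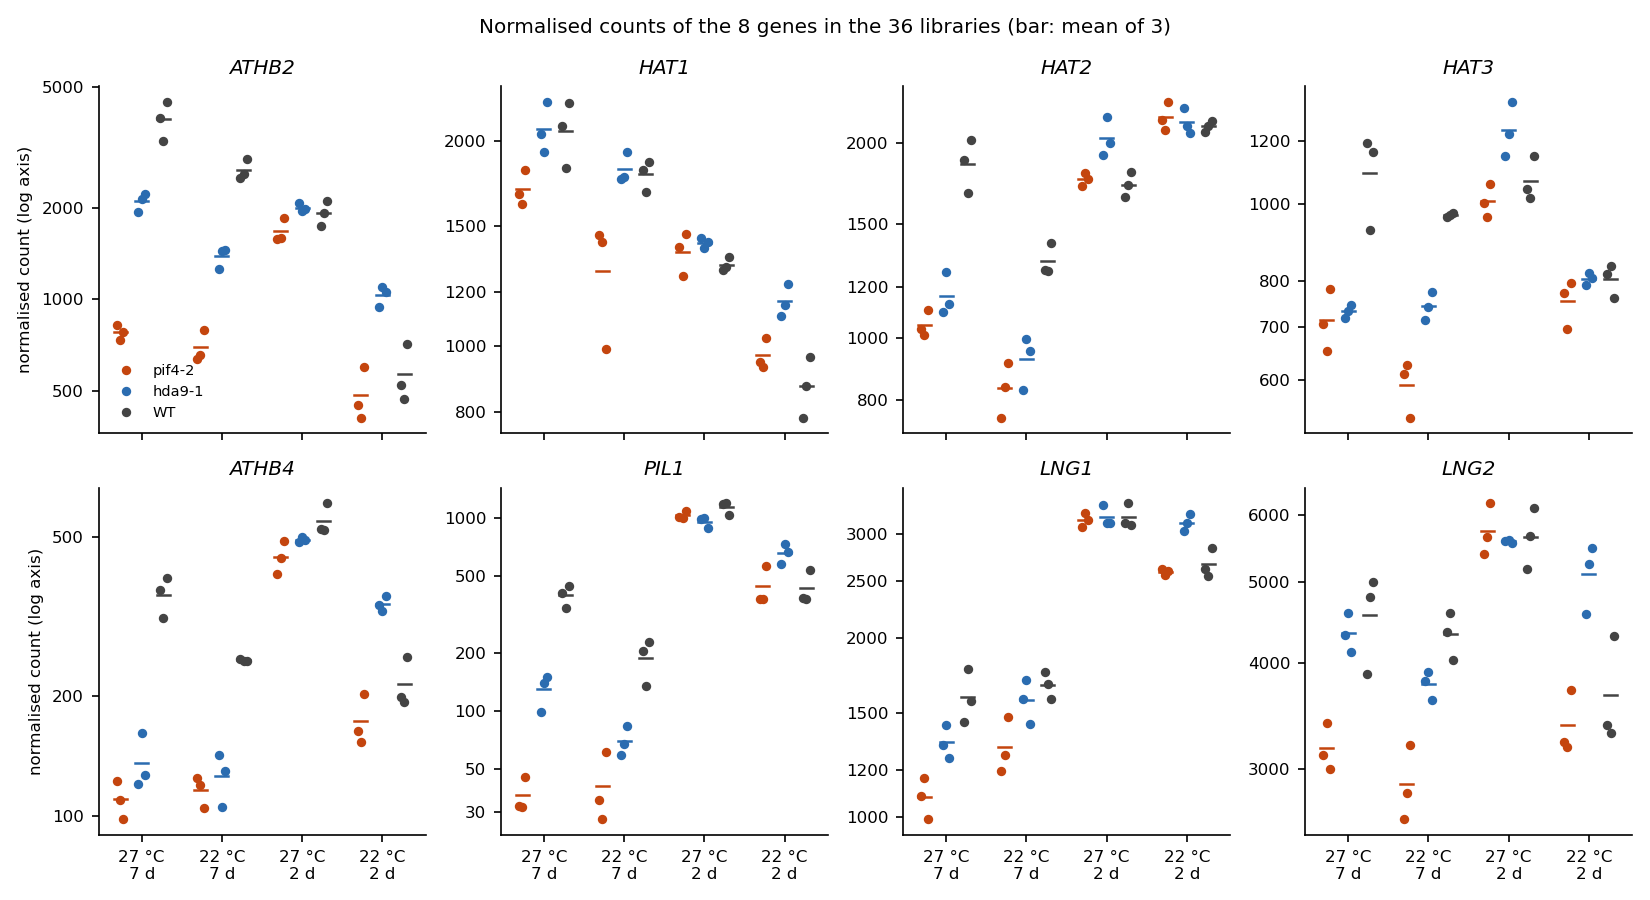
Normalised counts (log axis) of the 8 genes in all 36 libraries, with 1 point per library and a bar at the mean of each group of 3, for pif4-2, hda9-1 and WT. At 7 days the pif4-2 points of ATHB2 and PIL1 lie far below those of WT at both temperatures, while at 2 days the points of pif4-2 and WT mix.

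Warmth raised most of these genes in WT at 2 days. ATHB2 was 3.43-fold higher at 27 than at 22 °C, PIL1 2.64-fold and ATHB4 2.57-fold. HAT1, HAT3, LNG1 and LNG2 also rose, and HAT2 alone of the 8 fell. Thus 7 of 8 rose and 1 fell, where 36.5% of the 21164 genes tested rose and 35.5% fell (72.0% in all). The median log2 difference of the 8 was 0.62, against 0.01 over all genes tested. Tissue markers moved as well: 2 of 5 root markers rose and 3 fell (sums of 4594 to 5869 normalised counts at 27 °C and 6515 to 7440 at 22 °C), 2 of 2 markers of the vascular procambium (ATHB8 and TMO5) rose (1392 to 1583 and 1146 to 1309), and 1 of 4 green tissue markers fell (421085 to 574736 and 527614 to 631556). Of 4 shoot apex markers 1 rose and 1 fell. Their part in the response was not tested.

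ATHB2 had 1738, 1919 and 2102 normalised counts at 27 °C, against 520.0, 470 and 710 at 22 °C (log2 difference 1.78, SE 0.14, limma adjusted p = 2.54e-08). PIL1 had 1181, 1189 and 1037 at 27 °C, against 385, 382 and 538 at 22 °C (log2 1.40, SE 0.15, adjusted p = 4.27e-07). The lowest warm library of each gene lay well above the highest cool library. ATHB4 had 522, 519 and 606 at 27 °C, against 199, 192 and 249 at 22 °C (log2 1.36, SE 0.11, adjusted p = 3.72e-08). LNG2 had 5185, 5674 and 6114 at 27 °C, against 3383, 3303 and 4310 at 22 °C (log2 0.63, SE 0.10, adjusted p = 2.4e-05). Again no warm library overlapped a cool one. HAT2 had 1654, 1722 and 1806 at 27 °C, against 2087, 2126 and 2167 at 22 °C, every warm library being the lower (log2 -0.30, SE 0.06, adjusted p = 0.000165). The smaller rises, without overlap as well, were log2 0.60 (SE 0.07) for HAT1, 0.41 (SE 0.07) for HAT3 and 0.26 (SE 0.05) for LNG1.

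At 7 days fewer of the genes rose with warmth in WT, and HAT2 was now among those that rose. PIL1 was 2.15-fold higher at 27 °C, with 408, 342 and 447 normalised counts against 205, 134 and 227 at 22 °C (log2 1.1, SE 0.26, adjusted p = 0.00143). ATHB2 had 3960, 3329 and 4476 against 2502, 2594 and 2896 (log2 0.55, SE 0.10, adjusted p = 0.000181). ATHB4 had 367, 313 and 393 against 247, 244 and 244 (log2 0.54, SE 0.13, adjusted p = 0.00231). HAT2 had 1883, 1676 and 2024 against 1276, 1267 and 1401 (log2 0.50, SE 0.09, adjusted p = 0.000115). In these 4 genes no warm library overlapped a cool one. The other 4 had overlapping libraries and did not pass: HAT1 had a log2 difference of 0.21 (SE 0.12), HAT3 0.17 (SE 0.09), LNG2 0.07 (SE 0.09) and LNG1 -0.07 (SE 0.09). So 4 of 8 rose and 0 fell by limma, edgeR and DESeq2 alike, where 26.3% of 21320 genes rose and 31.1% fell (57.4% in all). An unadjusted limma p under 0.05 was found for 4 of 8, and for 13152 of the 21320 genes. The summed level of 4 green tissue markers was 546769 to 701657 at 27 °C against 1330637 to 1350171 at 22 °C in WT at this age, and 4 of 4 fell, as did 4 of 5 root markers. Of 4 shoot apex markers 2 rose and 2 fell, 4 of 4 seed reserve markers rose and 1 of 2 procambium markers fell. Their part in the response of the 8 genes was not tested.

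**Figure D3:**
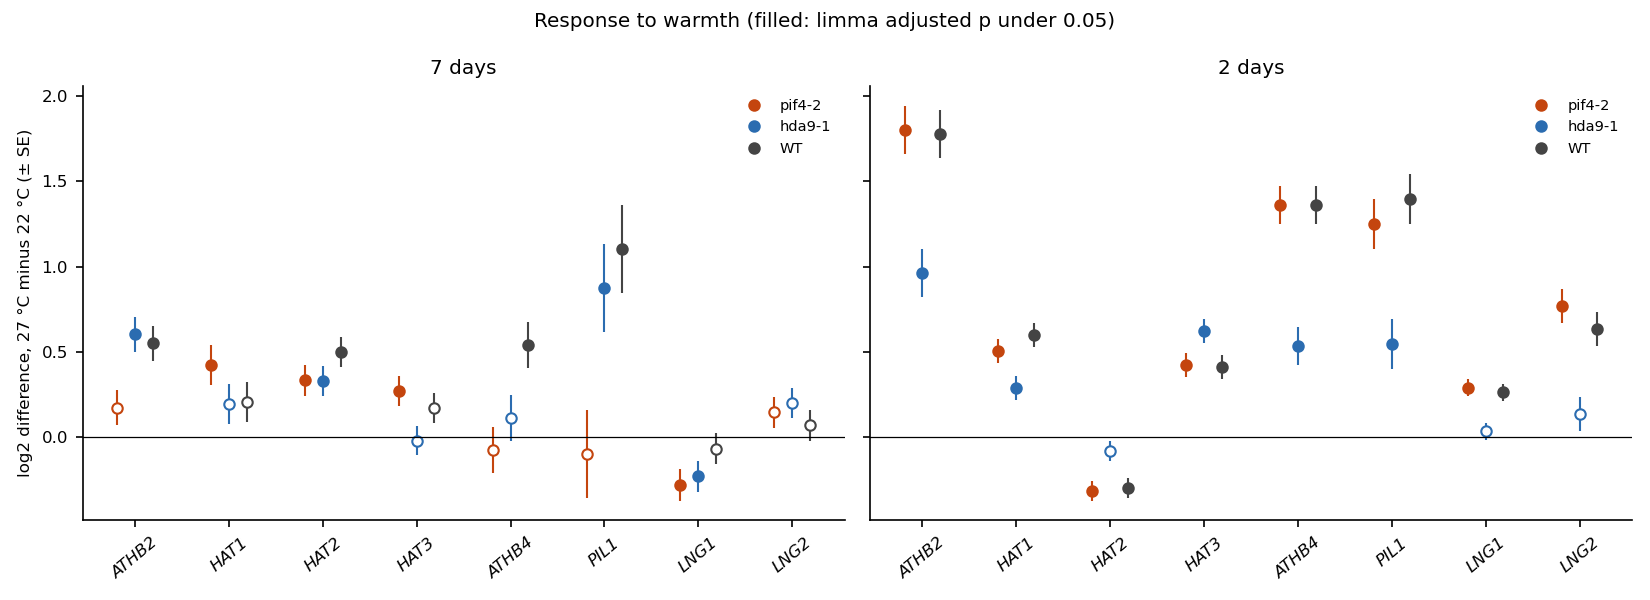
Log2 difference of 27 minus 22 °C (vertical axis, with SE bars) for each gene in pif4-2, hda9-1 and WT, at 7 days on the left and 2 days on the right. Filled points passed the limma test. At 2 days the pif4-2 and WT points of ATHB2 (1.80 and 1.78) lie together and hda9-1 (0.96) lies lower.

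The 2 ages were compared directly in WT, as the warmth response at 7 days minus that at 2 days, in a fit of all 36 libraries. The response was smaller at 7 days for ATHB2 (log2 -1.23, SE 0.18, limma adjusted p = 2.95e-06), ATHB4 (-0.83, SE 0.18, adjusted p = 0.000358) and LNG2 (-0.57, SE 0.14, adjusted p = 0.00124). HAT1 (-0.39, SE 0.14) and LNG1 (-0.33, SE 0.11) were called in the same direction. HAT2 went the other way, with a response higher by 0.80 (SE 0.11, adjusted p = 6.62e-07). PIL1 (-0.30, SE 0.31, adjusted p = 0.457) and HAT3 (-0.24, SE 0.11, adjusted p = 0.0806) did not pass. In all, 6 of 8 were called, against 47.4% of 21879 genes. The call of HAT1 (adjusted p = 0.0259, 0.0112 to 0.0938 over the alternatives) was lost without WT replicate 1 at 22 °C and 2 days (0.0898), replicate 3 at 27 °C and 2 days (0.0514), replicate 3 at 22 °C and 7 days (0.059) or replicate 2 at 27 °C and 7 days (0.0938). That of LNG1 (adjusted p = 0.012, 0.00266 to 0.0506) was lost without replicate 1 at 27 °C and 7 days (0.0506).

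Between 2 and 7 days the genes parted ways in WT. At 22 °C ATHB2 was 4.76-fold higher at 7 days, with 2502, 2594 and 2896 normalised counts against 520.0, 470 and 710 at 2 days (log2 2.25, SE 0.13). HAT1 was 2.05-fold higher (log2 1.04, SE 0.10), while PIL1 had 205, 134 and 227 at 7 days against 385, 382 and 538 at 2 days (log2 -1.22, SE 0.22, limma adjusted p = 1.23e-05). The libraries of the 2 ages did not overlap in any of the 3 genes. HAT2 (log2 -0.69, SE 0.08) and LNG1 (-0.68, SE 0.08) fell too, HAT3 rose (0.27, SE 0.08), and ATHB4 did not pass (0.21, SE 0.13, adjusted p = 0.135). LNG2 rose by 0.25 (SE 0.10, adjusted p = 0.0218, 0.000667 to 0.132 over the alternatives), a call that was lost without WT replicate 1 (0.104) or 2 (0.132) at 2 days or replicate 2 at 7 days (0.0913). Here 7 of 8 were called, against 76.4% of 21879 genes, so the share of the 8 is near that of all genes.

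Age and genotype crossed. At 27 °C ATHB2 was higher at 7 than at 2 days in WT (log2 1.02, SE 0.13) and lower in pif4-2, with 823, 733 and 782 normalised counts at 7 days against 1580, 1597 and 1849 at 2 days (log2 -1.10, SE 0.13). In hda9-1 it stood at 1943, 2148 and 2216 at 7 days against 2071, 1949 and 1988 at 2 days, which did not pass (log2 0.07, SE 0.13). PIL1 was lower at 7 days in all 3 genotypes, by log2 -4.81 (SE 0.22) in pif4-2, -2.89 in hda9-1 and -1.51 in WT (SE 0.22 each). LNG1 was likewise lower in all 3, by -1.55 in pif4-2, -1.26 in hda9-1 and -1.01 in WT (SE 0.08 each). Called were 8 of 8 genes in pif4-2 (71.1% of all genes), 7 of 8 in hda9-1 (69.9%) and 6 of 8 in WT (70.8%).

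At 2 days no difference of pif4-2 from WT was detected in these genes. Limma called 0 of 8 at 27 °C and 0 of 8 at 22 °C, and edgeR and DESeq2 also called 0. In each comparison 0.184% of 21164 genes were called, with 0.104% higher and 0.0803% lower at 27 °C and 0.0945% higher and 0.0898% lower at 22 °C. At an unadjusted p under 0.05 there were 1 of the 8 at 27 °C (ATHB4) and 2 at 22 °C (HAT1 and ATHB4). Over all 21164 genes there were 766 at 27 °C and 674 at 22 °C. ATHB2 had 1580, 1597 and 1849 normalised counts in pif4-2 against 1738, 1919 and 2102 in WT at 27 °C, and the libraries overlapped (log2 -0.20, SE 0.14). PIL1 had 1013, 1005 and 1085 in pif4-2 against 1181, 1189 and 1037 in WT, again with overlap (log2 -0.13, SE 0.15). ATHB4, at 402, 441 and 488 in pif4-2 against 522, 519 and 606 in WT at 27 °C, was the gene without overlap, with log2 -0.31 (SE 0.11) at 27 °C and -0.30 (SE 0.11) at 22 °C. Over the 8 genes and both temperatures the 95% intervals of the log2 difference, 1 gene at a time, reached from -0.54 to 0.33.

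At 7 days 7 of 8 genes were lower in pif4-2 than in WT at 27 °C, and 8 of 8 at 22 °C. In warm seedlings the fitted ratio of pif4-2 to WT was 0.093 for PIL1 and 0.20 for ATHB2. Among all 21320 genes 24.8% were called at 27 °C (11.7% lower, 13.1% higher) and 17.7% at 22 °C (9.70% lower, 7.95% higher). The median log2 difference of the 8 was -0.72 at 27 °C and -0.69 at 22 °C, against -0.01 over all genes at each temperature.

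ATHB2 had 823, 733 and 782 normalised counts in pif4-2 at 27 °C, against 3960, 3329 and 4476 in WT (log2 -2.32, SE 0.10, limma adjusted p = 6.06e-11). In cool seedlings it had 637, 656 and 791 in pif4-2, against 2502, 2594 and 2896 in WT (log2 -1.94, SE 0.10, adjusted p = 1.43e-09). The highest pif4-2 library at either temperature lay far below the lowest WT library. PIL1 had 32.1, 31.7 and 45.7 in pif4-2 at 27 °C, against 408, 342 and 447 in WT (log2 -3.43, SE 0.26, adjusted p = 3.75e-08). In cool seedlings PIL1 had 34.4, 27.5 and 61.0 in pif4-2, against 205, 134 and 227 in WT (log2 -2.22, SE 0.26, adjusted p = 1.47e-05). No pif4-2 library reached a WT library.

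ATHB4 had 123, 110 and 98.0 normalised counts in pif4-2 at 27 °C, against 367, 313 and 393 in WT (log2 -1.69, SE 0.13, adjusted p = 6.52e-08), and 124, 119 and 105 in pif4-2 against 247, 244 and 244 in WT at 22 °C (log2 -1.08, SE 0.13, adjusted p = 3.12e-05). HAT2 had 1031, 1010 and 1103 in pif4-2 at 27 °C, against 1883, 1676 and 2024 in WT (log2 -0.82, SE 0.09), and had log2 -0.66 (SE 0.09) at 22 °C. HAT3 had 706, 653 and 782 in pif4-2 at 27 °C, against 1191, 928 and 1163 in WT (log2 -0.61, SE 0.09), and had log2 -0.71 (SE 0.09) at 22 °C. None of these groups overlapped. HAT1 moved least among the HD-ZIP II genes: at 27 °C it had 1669, 1618 and 1814 in pif4-2 against 2101, 1826 and 2278 in WT, and did not pass (log2 -0.28, SE 0.12, adjusted p = 0.0931, 0.0303 to 0.293 over the alternatives). At 22 °C it fell (log2 -0.49, SE 0.12, adjusted p = 0.00759, 0.00196 to 0.0979), with 1457, 1420 and 988 in pif4-2 against 1810, 1682 and 1865 in WT. That call was lost in a fit of these 2 groups alone (0.0979), and the third pif4-2 library lies below the other 2.

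Of the LONGIFOLIA genes, LNG2 had 3113, 3396 and 3000 normalised counts in pif4-2 at 27 °C, against 3886, 4798 and 4998 in WT (log2 -0.52, SE 0.09, adjusted p = 0.000321), and 2612, 2807 and 3203 in pif4-2 against 4357, 4592 and 4043 in WT at 22 °C (log2 -0.59, SE 0.09, adjusted p = 0.000197). LNG1 had 1085, 1162 and 992 in pif4-2 at 27 °C, against 1448, 1774 and 1566 in WT (log2 -0.56, SE 0.09, adjusted p = 0.000185). Neither gene overlapped between the groups. At 22 °C LNG1 had 1197, 1271 and 1476 in pif4-2 against 1756, 1673 and 1582 in WT (log2 -0.35, SE 0.09, adjusted p = 0.0139, 0.00223 to 0.0756 over the alternatives). It lost the call in the fit of these groups alone (0.0756), without WT replicate 1 (0.0566) and without pif4-2 replicate 1 (0.0508).

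Markers of green tissue moved along at 27 °C. The summed level of 4 such markers (RBCS1A, LHCB1.1, LHCB2.1 and CAB3) was 994249 to 1030440 normalised counts in pif4-2, against 546769 to 701657 in WT, and 4 of 4 rose. At 22 °C it was 1413523 to 1579509 in pif4-2, against 1330637 to 1350171 in WT, and 0 of 4 were called. Of 5 root markers 2 rose and 1 fell at 27 °C, with sums of 3232 to 3558 in pif4-2 and 3149 to 3348 in WT, and 0 of 5 were called at 22 °C. Of 4 markers of the shoot apex and organ primordia 1 rose at 27 °C (sums of 1447 to 1521 in pif4-2, 1438 to 1670 in WT) and 1 fell at 22 °C (1495 to 2125 in pif4-2, 1439 to 1720 in WT). None of these 13 markers was at 0 in any library. At 27 °C 1 of 4 seed reserve markers fell (sums of 109 to 140 in pif4-2, 138 to 425 in WT, with CRU3 at 0 in 2 of the 3 pif4-2 libraries), as did 1 of 2 markers of the vascular procambium (1889 to 1977 in pif4-2, 2007 to 2185 in WT). At 22 °C 0 of these 6 were called, with 0 at an unadjusted p under 0.05. The part of any of these markers in the differences of the 8 genes was not tested.

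**Figure D4:**
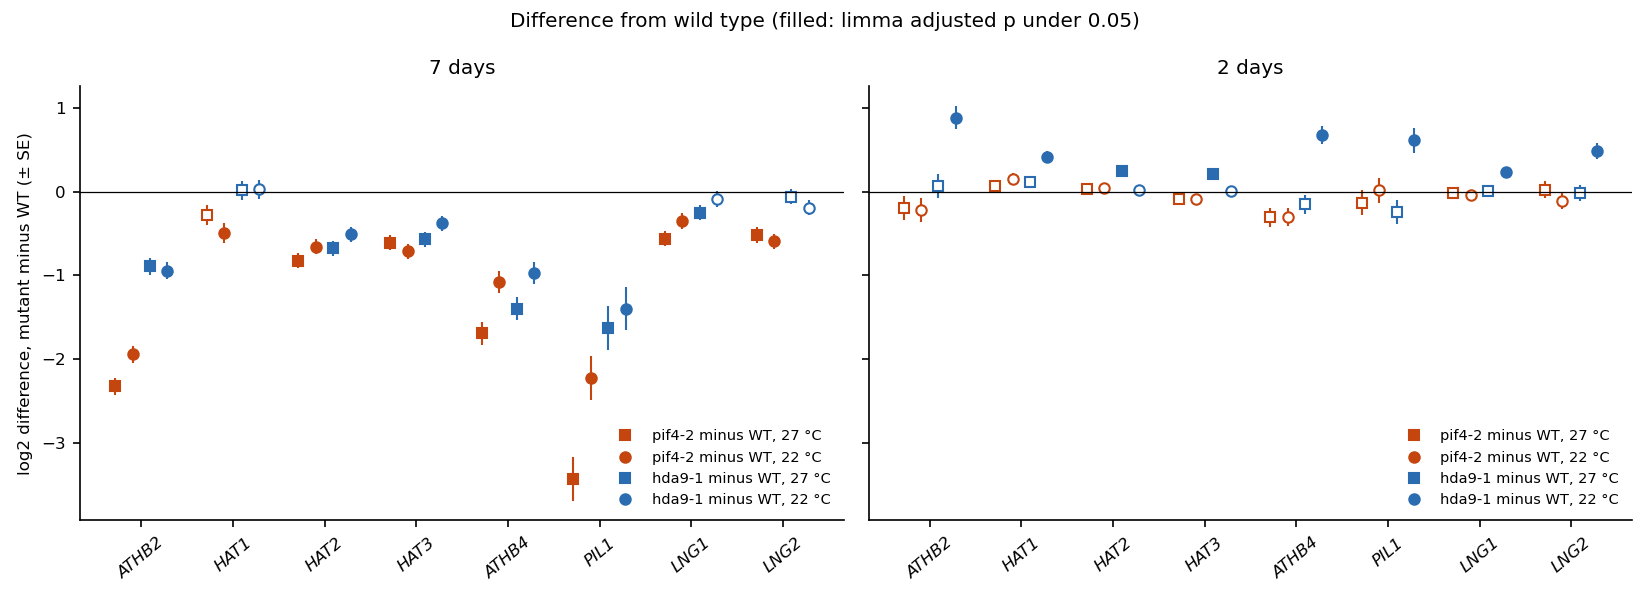
Log2 difference of each mutant from WT (vertical axis, with SE bars) for each gene by age, with squares at 27 °C and circles at 22 °C. Filled symbols passed the limma test. At 7 days PIL1 reaches -3.43 in pif4-2 and -1.62 in hda9-1 at 27 °C, while at 2 days no pif4-2 symbol is filled.

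A comparison added with the results known was the change of the pif4-2 difference with age. It was tested as the difference from WT at 7 days minus that at 2 days. At 27 °C it was -3.29 for PIL1 (SE 0.31, adjusted p = 1.64e-08), -2.12 for ATHB2 (SE 0.18, adjusted p = 2.69e-09) and -1.39 for ATHB4 (SE 0.18, adjusted p = 2.88e-06). HAT2 (-0.85), LNG1 (-0.55), LNG2 (-0.54) and HAT3 (-0.53) also passed, and HAT1 did not (-0.34, SE 0.14, adjusted p = 0.154). So 7 of 8 genes had a lower difference at 7 days, against 4.05% of 21879 genes (8.81% called in all). At 22 °C 7 of 8 were called as well (LNG1 not), against 2.41% lower and 3.57% in all, with -2.24 for PIL1 (SE 0.31) and -1.72 for ATHB2 (SE 0.18). With only the compared groups in that fit 4 of 8 were called.

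At 22 °C ATHB2, ATHB4 and PIL1 differed from WT in opposite directions in hda9-1 at the 2 ages. HAT1, LNG1 and LNG2 were called only at 2 days (higher), and HAT2 and HAT3 only at 7 days (lower). At 2 days and 22 °C 6 of 8 genes were higher in hda9-1, where 24.8% of 21164 genes were higher and 20.9% lower (45.7% called in all), and 0 were lower by limma, edgeR or DESeq2. An unadjusted limma p under 0.05 was found for 6 of 8, and for 11301 of the 21164 genes. The median log2 difference of the 8 was 0.45, against 0.01 over all genes. ATHB2 had 944, 1095 and 1053 normalised counts in hda9-1 at 22 °C, against 520.0, 470 and 710 in WT (log2 0.88, SE 0.14, limma adjusted p = 0.00023). ATHB4 had 337, 325 and 356 in hda9-1, against 199, 192 and 249 in WT (log2 0.67, SE 0.11, adjusted p = 0.000304). PIL1 had 575, 732 and 670.0 in hda9-1, against 385, 382 and 538 in WT (log2 0.61, SE 0.15, adjusted p = 0.00362). The groups did not overlap in these 3 genes. LNG2 (log2 0.48, SE 0.10), HAT1 (0.42, SE 0.07) and LNG1 (0.23, SE 0.05) rose too. HAT2 (0.02, SE 0.06) and HAT3 (0.00, SE 0.07) did not pass.

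In warm seedlings of 2 days 2 of 8 genes were higher in hda9-1, HAT2 and HAT3, where 14.4% of all genes were higher and 15.0% lower (29.4% called in all). HAT2 had 1919, 2196 and 2006 normalised counts in hda9-1, against 1654, 1722 and 1806 in WT (log2 0.24, SE 0.06, adjusted p = 0.00555). HAT3 had 1147, 1225 and 1344 in hda9-1, against 1043, 1017 and 1149 in WT, where the lowest hda9-1 library lies just under the highest WT library (log2 0.21, SE 0.07, adjusted p = 0.0314, 0.00898 to 0.164 over the alternatives). The HAT3 call was lost in the fit of these groups alone (0.0952), without WT replicate 1 (0.0968) or 2 (0.126) and without hda9-1 replicate 2 (0.0622) or 3 (0.164). ATHB2, at 2071, 1949 and 1988 in hda9-1 against 1738, 1919 and 2102 in WT, overlapped (log2 0.07, SE 0.14). PIL1 and ATHB4 were lower, and HAT1 higher, in each hda9-1 library than in each WT library, but none was called.

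Green tissue markers were higher in hda9-1 at 2 days. Their summed level was 747880 to 865578 normalised counts in hda9-1 against 421085 to 574736 in WT at 27 °C, and 695810 to 862496 against 527614 to 631556 at 22 °C, with 3 of 4 higher at 27 °C and 2 of 4 at 22 °C. Root marker sums were 5402 to 6254 in hda9-1 against 6515 to 7440 in WT at 22 °C, with 1 of 5 higher and 1 lower. Of 4 shoot apex markers 1 rose at 27 °C, and 1 rose and 1 fell at 22 °C, 1 of 2 procambium markers rose at 27 °C and 1 of 4 seed reserve markers fell at 22 °C. No marker of these lists was at 0 in these groups. Their part in the 2-day differences was not tested.

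At 7 days 6 of 8 genes were lower in hda9-1 than in WT at 27 °C, where 15.9% of 21320 genes were lower and 18.4% higher (34.3% called in all). At 22 °C 5 of 8 were lower, where 10.2% were lower and 9.84% higher (20.0% in all). The median log2 difference of the 8 was -0.62 at 27 °C and -0.44 at 22 °C, against -0.01 and -0.02 over all genes. PIL1 had 99.3, 140 and 150 normalised counts in hda9-1 at 27 °C, against 408, 342 and 447 in WT (log2 -1.62, SE 0.26, adjusted p = 0.000113). ATHB4 had 120, 161 and 127 in hda9-1, against 367, 313 and 393 in WT (log2 -1.40, SE 0.13, adjusted p = 5.87e-07). ATHB2 had 1943, 2148 and 2216 in hda9-1, against 3960, 3329 and 4476 in WT (log2 -0.89, SE 0.10, adjusted p = 3.87e-06). Each hda9-1 library lay below each WT library in all 3 genes. HAT2 (log2 -0.68, SE 0.09) and HAT3 (-0.57, SE 0.09) fell without overlap as well. HAT1 had 2050, 1924 and 2283 in hda9-1 against 2101, 1826 and 2278 in WT (log2 0.01, SE 0.12, adjusted p = 0.939).

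At 22 °C and 7 days the same 5 genes fell: PIL1 (log2 -1.40, SE 0.26), ATHB4 (-0.97, SE 0.13), ATHB2 (-0.94, SE 0.10), HAT2 (-0.51, SE 0.09) and HAT3 (-0.38, SE 0.09). PIL1 had 58.9, 67.3 and 83.7 normalised counts in hda9-1, against 205, 134 and 227 in WT, with no overlap. LNG2 did not pass at 27 °C (log2 -0.06, SE 0.09, adjusted p = 0.63) or 22 °C (-0.19, SE 0.09, adjusted p = 0.142). LNG1 fell at 27 °C, with 1325, 1430 and 1259 in hda9-1 against 1448, 1774 and 1566 in WT (log2 -0.25, SE 0.09, adjusted p = 0.0421, 0.0244 to 0.2 over the alternatives). That call was lost with no filter on low values (0.0534), without WT replicate 2 (0.2) or 3 (0.0727) and without hda9-1 replicate 1 (0.0986) or 3 (0.153). Green marker sums at 27 °C were 692494 to 719734 in hda9-1 against 546769 to 701657 in WT, with 0 of 4 markers called by limma (1 at an unadjusted p under 0.05). Of 5 root markers 1 rose and 1 fell there (3186 to 3552 in hda9-1, 3149 to 3348 in WT), and of 4 shoot apex markers 1 rose and 1 fell (1391 to 1452 in hda9-1, 1438 to 1670 in WT). Of 4 seed reserve markers 1 fell (18.9 to 395 in hda9-1, 138 to 425 in WT), as did 1 of 2 procambium markers (1943 to 1984 in hda9-1, 2007 to 2185 in WT). At 22 °C 1 shoot apex marker rose and no other marker was called. Their part in the differences was not tested.

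The shift between the ages was tested in hda9-1 as it was in pif4-2, again with the results known. At 22 °C it was -2.01 for PIL1 (SE 0.31, adjusted p = 4.98e-05), -1.83 for ATHB2 (SE 0.18, adjusted p = 1.01e-07) and -1.64 for ATHB4 (SE 0.18, adjusted p = 3.53e-07), and 8 of 8 were called lower, against 13.9% of 21879 genes (23.8% in all). At 27 °C 5 of 8 were called lower, against 6.99% (15.6% in all): PIL1 (-1.38, SE 0.31), ATHB4 (-1.24, SE 0.18), ATHB2 (-0.96, SE 0.18), HAT2 (-0.92, SE 0.11) and HAT3 (-0.78, SE 0.11).

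The 2 mutants share the WT libraries as controls, so they were also set directly against each other at 7 days, a comparison added with the results known. ATHB2 was 2.69-fold higher in hda9-1 than in pif4-2 at 27 °C, with 1943, 2148 and 2216 normalised counts against 823, 733 and 782 (log2 1.43, SE 0.10, adjusted p = 7.41e-08). PIL1 was 3.49-fold higher, with 99.3, 140 and 150 in hda9-1 against 32.1, 31.7 and 45.7 in pif4-2 (log2 1.80, SE 0.26, adjusted p = 6.67e-05). ATHB4, with 120, 161 and 127 in hda9-1 against 123, 110 and 98.0 in pif4-2, overlapped and did not pass (log2 0.30, SE 0.13, adjusted p = 0.105). Neither did HAT2 (0.15, SE 0.09) or HAT3 (0.04, SE 0.09). At 27 °C 4 of 8 were higher in hda9-1, with LNG1 (0.31) and LNG2 (0.46) the other two, against 15.5% of 21320 genes (29.5% called in all). The LNG1 call (adjusted p = 0.0166, 0.00947 to 0.0804) was lost without pif4-2 replicate 3 (0.0804) or hda9-1 replicate 2 (0.0724).

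At 22 °C 6 of 8 were higher in hda9-1 than in pif4-2, against 16.3% (31.9% called in all). ATHB2 had a log2 difference of 1.00 (SE 0.10), HAT1 of 0.52 (SE 0.12), LNG2 0.40 (SE 0.09) and HAT3 0.33 (SE 0.09). PIL1 (0.82, SE 0.26, adjusted p = 0.0216, 0.00105 to 0.103 over the alternatives) lost the call in a fit of these groups alone (0.092), without pif4-2 replicate 1 (0.0615) or 2 (0.103) and without hda9-1 replicate 3 (0.0948). LNG1 (0.26, adjusted p = 0.0374, 0.0058 to 0.157) lost it with only these groups (0.11), without pif4-2 replicate 1 (0.139) or 2 (0.0899) and without hda9-1 replicate 1 (0.0862) or 2 (0.157).

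The response to warmth itself was asked of each mutant. At 2 days the pif4-2 response was close in size to that of WT: ATHB2 rose by log2 1.80 (SE 0.14), ATHB4 by 1.36 (SE 0.11) and PIL1 by 1.25 (SE 0.15), 7 of 8 genes rose, and HAT2 fell (-0.32, SE 0.06), where 35.8% of genes rose and 34.4% fell (70.2% in all). The difference of the 2 responses was called for 0 of 8 by limma, edgeR and DESeq2, with 0 of 8 at an unadjusted p under 0.05, and for 0 of 21164 genes by limma. Over all genes 313 had an unadjusted p under 0.05 for that difference. The 95% intervals of that difference, 1 gene at a time, reached from -0.59 to 0.45.

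The hda9-1 response at 2 days was called smaller than that of WT for 3 of the genes. An unadjusted p under 0.05 for that difference was found for 8 of 8, and for 4307 of 21164 genes. Over the 8 the difference ran from -0.86 to 0.22, so not all went the same way. ATHB2 rose by log2 0.96 (SE 0.14), PIL1 by 0.54 (SE 0.15) and ATHB4 by 0.54 (SE 0.11), with HAT3 (0.62, SE 0.07) and HAT1 (0.29, SE 0.07) also higher, so 5 of 8 rose, where 31.8% of genes rose and 35.0% fell (66.8% called in all). The response minus that of WT was -0.82 for ATHB2 (SE 0.20, limma adjusted p = 0.0431), -0.83 for ATHB4 (SE 0.16, adjusted p = 0.0175) and -0.86 for PIL1 (SE 0.21, adjusted p = 0.0427), 3 of 8 lower, where 2.15% of 21164 genes were lower and 0.567% higher (2.71% in all). These calls lie near the threshold. Over the alternatives the adjusted p ran from 0.000299 to 0.126 for ATHB2, from 0.000468 to 0.0604 for ATHB4 and from 0.000279 to 0.126 for PIL1, and the count of called genes from 0 to 6 of 8, with 1 under edgeR and 4 under DESeq2. The count was 6 with WT replicate 3 at 22 °C left out. For ATHB2 the smaller response goes with higher hda9-1 levels at 22 °C (1030 ± 78.1 in hda9-1 against 567 ± 126 in WT). At 27 °C its levels were similar (2003 ± 62.4 against 1919 ± 182). PIL1 and ATHB4 were also higher in hda9-1 at 22 °C, but at 27 °C each hda9-1 library lay below each WT library. The highest hda9-1 library there had 998 against 1037 in the lowest WT library for PIL1, and 500 against 519 for ATHB4. Neither gene was called at 27 °C (limma adjusted p = 0.221 for PIL1 and 0.318 for ATHB4).

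At 7 days the pif4-2 seedlings raised HAT1 (log2 0.42, SE 0.12), HAT2 (0.33, SE 0.09) and HAT3 (0.27, SE 0.09) with warmth, and LNG1 fell (-0.28, SE 0.09), so 3 of 8 rose and 1 fell where 28.5% rose and 31.6% fell (60.1% in all). PIL1 had 32.1, 31.7 and 45.7 normalised counts at 27 °C against 34.4, 27.5 and 61.0 at 22 °C, with full overlap (-0.10, SE 0.26, adjusted p = 0.752). ATHB2 did not pass either (0.17, SE 0.10, adjusted p = 0.158). The calls of HAT3 (adjusted p = 0.0135, 0.00397 to 0.0804 over the alternatives) and LNG1 (0.0134, 0.00641 to 0.0713) were lost without pif4-2 replicate 3 at 22 °C (0.0553 and 0.0649) or at 27 °C (0.0804 and 0.0713), and HAT3 also in a fit of these groups alone (0.0547).

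Warm hda9-1 seedlings of 7 days had higher PIL1 (log2 0.88, SE 0.26), ATHB2 (0.60, SE 0.10) and HAT2 (0.33, SE 0.09) than cool ones, and lower LNG1 (-0.23, SE 0.09), 3 of 8 higher and 1 lower where 27.5% rose and 30.4% fell (57.9% in all). LNG2 had 4326, 4585 and 4124 at 27 °C against 3817, 3909 and 3620 at 22 °C, without overlap (0.20, SE 0.09, adjusted p = 0.0657). Replicate numbers pair the libraries of that comparison by their values, and LNG2 passed in the fit with a replicate block (0.0468, with 0.00606 to 0.196 over the alternatives). LNG1 (adjusted p = 0.0381, 0.0142 to 0.163) lost its call under DESeq2 (0.0627), without hda9-1 replicate 1 (0.0833) or 2 (0.163) at 22 °C and without replicate 1 (0.0839) or 3 (0.135) at 27 °C. Set against the WT response, limma called 0 of 8 genes in pif4-2, where 2.1% of 21320 genes were called (1.63% higher, 0.464% lower), and 0 of 8 in hda9-1, where 3.53% were (2.81% higher, 0.713% lower), with 3 and 1 at an unadjusted p under 0.05. Over all 21320 genes 3437 and 3353 had such an unadjusted p. edgeR called 0 and 0 of 8, and DESeq2 1 and 0. The gene that DESeq2 called was PIL1, whose pif4-2 response minus that of WT was -1.21 (SE 0.37, limma adjusted p = 0.0986, 0.0165 to 0.251 over the alternatives, with 0.0165 under the replicate block and 0.0393 without pif4-2 replicate 2 at 22 °C).

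Of 12 other shade-induced genes, 12 fell in pif4-2 against WT at 27 °C and 7 days and 11 at 22 °C (11.7% and 9.70% of all genes), with median log2 differences of -1.97 and -2.11. Among them are XTH15 (-3.48, SE 0.24, at 27 °C), a cell wall enzyme gene, and at 22 °C IAA29 (-3.55, SE 0.10) and IAA19 (-2.44, SE 0.16), auxin-induced repressors, and HFR1 (-2.18, SE 0.13), an atypical bHLH that restrains PIFs. PIL2 had -0.35 (SE 0.27) at 22 °C and did not pass. In hda9-1 12 fell at 27 °C and 9 at 22 °C (15.9% and 10.2% of all genes, medians of the 12 -1.05 and -1.16), with FHL, which helps carry phytochrome A into the nucleus, at -1.99 (SE 0.18) and CKX5, a cytokinin oxidase, at -1.65 (SE 0.15) at 22 °C. HFR1 had -0.36 (SE 0.13) in hda9-1 at 27 °C and -0.33 (SE 0.13, not passing) at 22 °C. At 2 days 0 of the 12 were called in pif4-2 at either temperature by limma, edgeR or DESeq2 (2 at 27 °C and 1 at 22 °C at an unadjusted p under 0.05), whereas in hda9-1 7 rose and 1 fell at 22 °C (24.8% and 20.9% of all genes). In pif4-2 766 of 21164 genes at 27 °C and 674 at 22 °C had such an unadjusted p.

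The 5 other HD-ZIP II genes had a smaller median difference of pif4-2 from WT at 7 days than the 8 genes. At 27 °C and 7 days ATHB17 (-0.45, SE 0.14), HAT9 (-0.31, SE 0.08) and HAT22 (-0.21, SE 0.07) fell (median -0.31), with 1 to 3 of 5 called over the alternatives. ATHB17 and HAT9 had larger differences than HAT1 of the 8, which had -0.28 and did not pass. Over all genes 11.7% fell there (24.8% called in all). At 22 °C 0 of 5 were called by limma, edgeR or DESeq2 (1 at an unadjusted p under 0.05, median -0.21), and 0 to 1 over the alternatives. Such an unadjusted p was found there for 6835 of 21320 genes. In hda9-1 1 of 5 rose at 7 days at each temperature (18.4% of all genes at 27 °C and 9.84% at 22 °C). It was HAT9, by 0.23 at 27 °C and 0.30 at 22 °C (SE 0.08 each). The count ran from 0 to 2 at 27 °C and differed in 8 of 13 alternatives, and from 0 to 1 at 22 °C, differing in 2 of 13. With warmth in WT at 2 days ATHB17 (1.87, SE 0.25), HAT14 and HAT22 rose, 3 of 5, where 36.5% of all genes rose (72.0% called in all). The 5 HD-ZIP III genes, whose proteins set the upper side of leaves and act upstream of some HD-ZIP II genes, gave 1 higher at 27 °C (PHB, 0.20) and 1 lower at 22 °C (PHV, -0.21) in pif4-2 at 7 days. These counts do not hold throughout: they ran from 0 to 1 at 27 °C, differing in 2 of 13 alternatives, and from 0 to 2 at 22 °C, differing in 5 of 13. Over all genes 13.1% rose in pif4-2 at 27 °C and 7 days, and 9.70% fell at 22 °C. In warm WT seedlings at 7 days 3 of the 5 HD-ZIP III genes fell: REV (-0.52), PHB (-0.51) and ATHB8 (-0.14). There 31.1% of all genes fell (57.4% called in all).

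Of 3 genes linked with LONGIFOLIA action (AN, XTH17 and XTH24), 3 rose with warmth in WT at 7 days and 3 at 2 days. Over all genes 26.3% rose at 7 days (57.4% called in all) and 36.5% at 2 days (72.0% in all). LNG3 and LNG4 were first in this list too, and were dropped because the annotation names their loci TRM3 and TRM4. Their values are not given here. XTH17, a cell wall enzyme gene, fell in pif4-2 at 7 days by log2 -2.20 (SE 0.14) at 27 °C and -0.65 (SE 0.14) at 22 °C. Of 7 PIF and phytochrome genes, 4 rose in hda9-1 at 22 °C and 2 days, where 24.8% of all genes rose (45.7% called in all). They were PIF7 (2.12), PIF4 (1.44) and PIF5 (0.64), which drive shade and warmth growth, and the photoreceptor gene PHYB (0.39). In hda9-1 at 7 days 4 of these 7 rose and 2 fell at 27 °C (18.4% and 15.9% of all genes). At 22 °C 0 rose and 3 fell (9.84% and 10.2% of all genes).

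**Figure D5:**
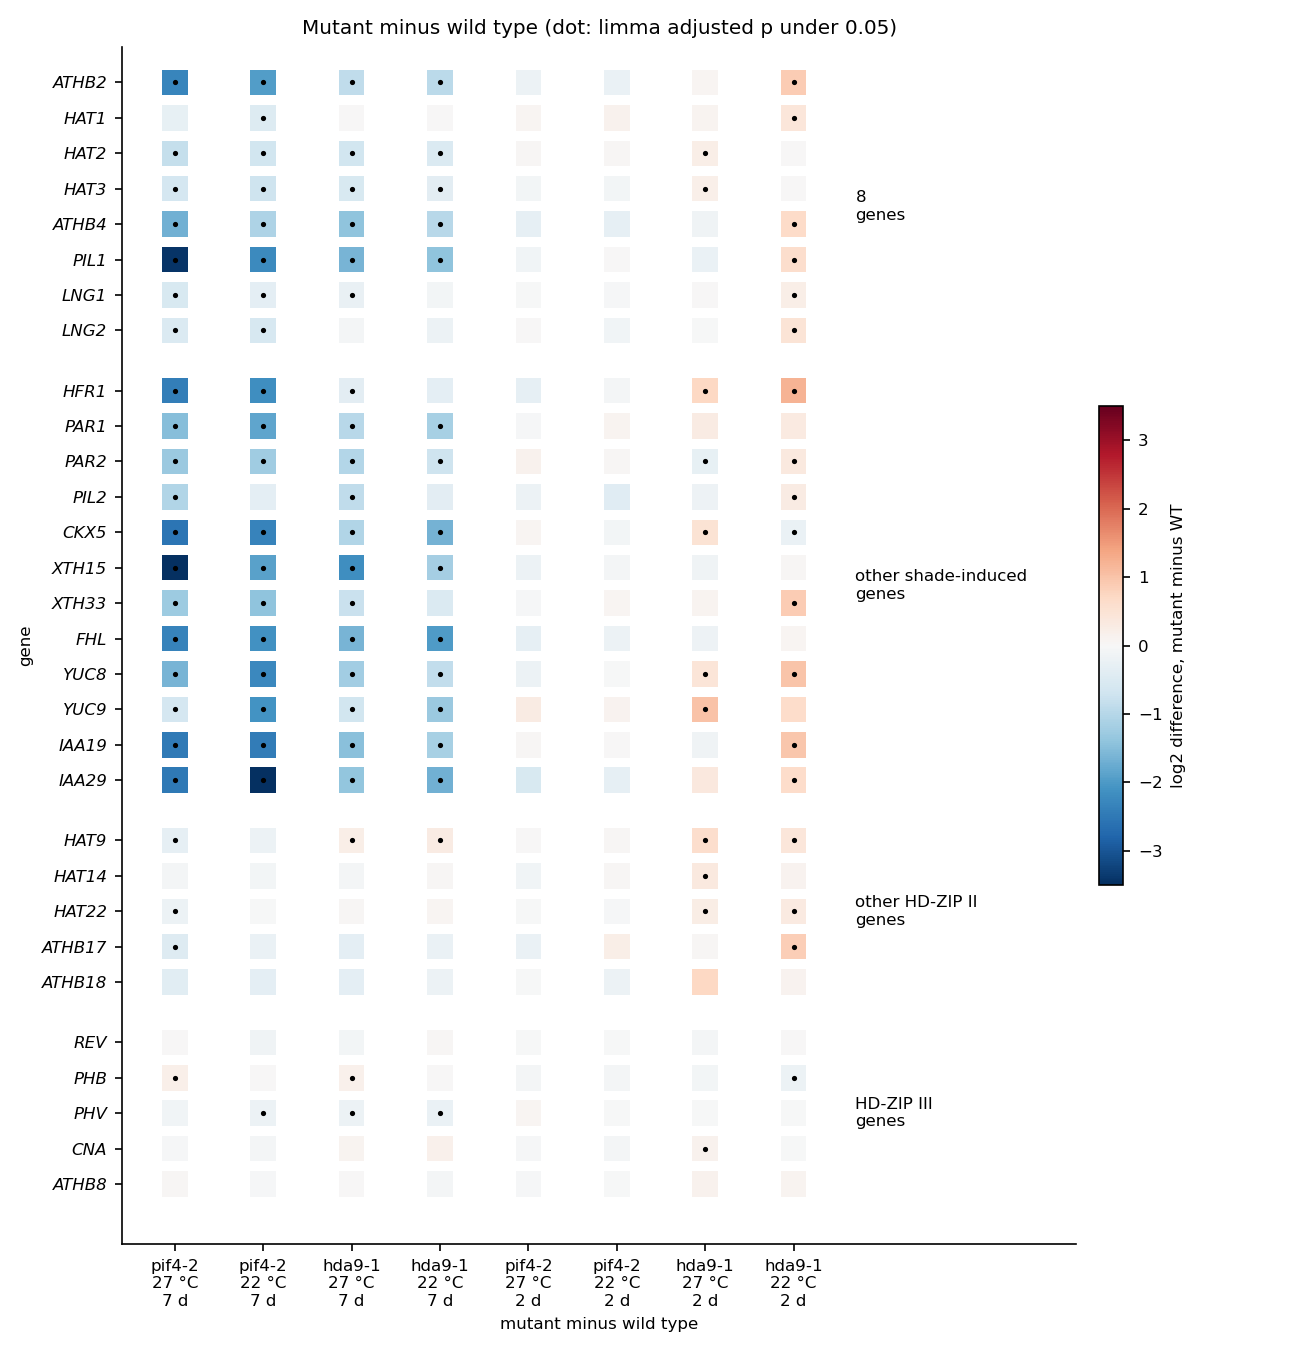
Log2 difference of each mutant from WT by temperature and age, as a colour grid for the 8 genes, 12 other shade-induced genes, 5 other HD-ZIP II genes and 5 HD-ZIP III genes. A dot marks a gene that passed the limma test. The pif4-2 columns at 7 days are dark for IAA29 (-3.55 at 22 °C) and PIL1 (-3.43 at 27 °C), and the pif4-2 columns at 2 days hold no dot.

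Likeness of pattern was measured as Pearson's r of log2(normalised count + 1) over all 36 libraries, among 18296 genes with a mean of at least 50. The libraries share age, temperature and genotype, and r gives no test here. Nearest to ATHB2 were HFR1 (0.944), AT1G02350 (0.919) and IAA29 (0.908), and nearest to HAT3 were PAR1 (0.924), SAUR19 (0.915) and SAUR22 (0.913). HAT2 lay nearest GH3.3 (0.946), IAA34 (0.939) and AT1G60060 (0.937). ATHB4 lay nearest AT2G19660 (0.955), IAA6 (0.944) and WNK1 (0.941). HAT1 lay nearest AT5G12310 (0.960), ATL6 (0.958) and AT1G70590 (0.954). PIL1 was nearest AT4G30410 (0.984), BIM1 (0.982) and FLA2 (0.981). LNG1 was nearest AT3G08670 (0.987), XTH8 (0.981) and DAR7 (0.979), and LNG2 nearest AT2G44500 (0.941), AT2G47440 (0.937) and FRA1 (0.928).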

How the data were processed

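RNA sequencing of whole seedlings was deposited as 1 file per library. The authors' values fit a signal made by dividing read counts by a single size factor per library, with 33540 loci and 5 counting categories in each file. Per the submitters' processing notes, FastQC, TopHat2, Bowtie, HTSeq, DESeq and the build TAIR10 were used, and per the labels' protocols, TruSeq libraries were sequenced on a HiSeq2500. Which libraries were scaled together, and the strand setting, are not given in the sources used here. Whole reads were recovered for 100% of values within 0.01 of a whole number. Reads that were ambiguous, outside genes or not uniquely placed made up 7.84 to 10.1% and were left out.

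Testing used limma 3.58.1 under R 4.3.3, with a mean for each group and the limma-trend method on log2(value + 1), and took in each locus that reached 10 in 3 or more libraries. The 18 libraries of an age were fitted together, or all 36 between ages. Fold changes on this scale understate changes at low counts. The 8 genes and the lists were chosen by name, with earlier results of these data known, the text names a part of each list, and 25 comparisons were planned and 6 added. The 6 were the changes of each mutant difference with age, and hda9-1 against pif4-2. They were added after the values of the 8 genes were seen. Motif matches used the TAIR10.1 sequence and annotation. Per kb levels used the union of exons. On simulated data the limma step recovered 95 and 100% of genes changed by log2 1 and 2 for pif4-2 against WT at 22 °C and 7 days (21133 genes). For the hda9-1 warmth response against that of WT at 7 days it recovered 86 and 96% (21123 genes).

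Alternatives were a pseudocount of 8, no filter, TMM rescaling, edgeR 4.0.16 and DESeq2 1.42.0 on recovered reads, only the compared groups, each library left out, replicate 3 of WT and pif4-2 at 2 days left out, and the replicate number as a block. The labels do not say that replicate numbers share batches. Taking numbers as paired where every pair of deviations correlated above 0.1, the rule was met for the warmth response of pif4-2 at 2 days (0.196 to 0.466), that of hda9-1 at 7 days (0.104 to 0.190), pif4-2 against WT at 2 days (0.194 to 0.470 at 22 °C, 0.236 to 0.519 at 27 °C), hda9-1 against WT at 27 °C and 2 days (0.211 to 0.443) and hda9-1 against pif4-2 at 27 °C and 7 days (0.197 to 0.334).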

Additional observations from a re-analysis of the deposited data

Results flagged for a closer look

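The following differences of differences passed the limma test, so the effect of warmth or of a mutant differed between genotypes or ages. All are on the log2 scale, each change being 27 minus 22 °C or mutant minus WT. The changes of a mutant difference with age were comparisons added with the results known.

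The warmth response at 2 days was smaller in hda9-1 than in WT for PIL1 (-0.86), ATHB4 (-0.83) and ATHB2 (-0.82). These calls were lost in 12 of 20 alternatives for PIL1, 4 of 20 for ATHB4 and 14 of 20 for ATHB2. The warmth response of WT at 7 days minus that at 2 days was -1.23 for ATHB2, -0.83 for ATHB4, -0.57 for LNG2, -0.39 for HAT1 and -0.33 for LNG1, and 0.80 for HAT2.

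The difference of pif4-2 from WT at 7 days minus that at 2 days was, at 27 °C, -3.29 for PIL1, -2.12 for ATHB2, -1.39 for ATHB4, -0.85 for HAT2, -0.55 for LNG1, -0.54 for LNG2 and -0.53 for HAT3. At 22 °C it was -2.24 for PIL1, -1.72 for ATHB2, -0.77 for ATHB4, -0.70 for HAT2, -0.64 for HAT1, -0.62 for HAT3 and -0.48 for LNG2. The last call was lost in 11 of 20 alternatives (adjusted p 0.0055 to 0.166).

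The same change in hda9-1 was, at 27 °C, -1.38 for PIL1, -1.24 for ATHB4, -0.96 for ATHB2, -0.92 for HAT2 and -0.78 for HAT3. At 22 °C it was -2.01 for PIL1, -1.83 for ATHB2, -1.64 for ATHB4, -0.68 for LNG2, -0.53 for HAT2, -0.39 for HAT1, -0.38 for HAT3 and -0.32 for LNG1. There the call of HAT1 was lost in 11 of 20 alternatives (adjusted p 0.0146 to 0.146) and that of LNG1 in 7 of 20 (0.0155 to 0.0984).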

How the results depend on the processing

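Of 204 gene-by-comparison values, 156 were called. Across 2333 alternatives of these, 0 turned direction, 132 kept the call under each alternative run and 24 lost it under at least 1. Values smaller than their SE (44) were left out of this count. Counts among the 8 genes moved by more than 1.5 times, or to or from 0, in 5 of 31 comparisons. Smaller changes of other counts are not listed here. The hda9-1 warmth response against WT at 2 days (3 called) gave 6 under the replicate block, 6 without replicate 3 of WT and pif4-2, 1 without the filter, 1 with TMM rescaling, 1 with edgeR and 0 to 6 with libraries left out. That of pif4-2 at 7 days (0 called) gave 1 under the replicate block, 1 with DESeq2 and 0 to 1 with libraries left out. hda9-1 against WT at 27 °C and 2 days (2) gave 1 with only the compared groups and 1 to 2 with libraries left out. The pif4-2 change with age at 22 °C (7) gave 4 with only the compared groups and 5 to 8 with libraries left out. The pif4-2 warmth response at 7 days (4) gave 2 to 4, with 2 when pif4-2 replicate 3 at 27 °C was left out. LNG2 in pif4-2 against WT at 22 °C and 2 days (-0.11) ran from -0.18 to 0.012. The block changed 1 other call in a paired comparison, LNG2 in warm hda9-1 at 7 days.

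Counts over all genes moved by more than 1.5 times as follows. With only the compared groups in the fit, 39 became 24 and 16 for pif4-2 against WT at 22 and 27 °C at 2 days, 3764 became 1032 for pif4-2 at 22 °C and 7 days, 6214 became 3884 for hda9-1 at 27 °C and 2 days, 4273 became 6652 for hda9-1 at 22 °C and 7 days, 6809 became 3702 for hda9-1 against pif4-2 at 22 °C, and 780 became 317 for the pif4-2 change with age at 22 °C. With libraries left out, 3764 became 2309 to 2506, 6214 became 3707 to 4107, 780 became 352 to 1335, and the hda9-1 change with age at 22 °C (5212) 3406, in the settings that moved them. The replicate block gave 59 in place of 39 for pif4-2 at 27 °C and 2 days and 1304 in place of 780, and 18 stood in place of 39 at 22 °C without replicate 3 of WT and pif4-2. For the warmth response against WT, the block, DESeq2 and only the compared groups gave 2964, 1032 and 183 for hda9-1 at 2 days (574, with 371 under TMM, 304 under edgeR, 2093 without replicate 3 of WT and pif4-2 and 68 to 1840 with libraries left out), 780, 869 and 187 for pif4-2 at 7 days (447, with 205 to 768) and 1200, 1146 and 1505 for hda9-1 at 7 days (752, with 328 to 470). DESeq2 gave 3 in place of 0 for pif4-2 at 2 days, and 1 library left out gave 1. The cause of these changes was not tested.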
